A study of Mus musculus with 8 samples.

Results

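The genes of the tricarboxylic acid (TCA) cycle, of pyruvate entry into it, of succinate dehydrogenase assembly and of the malate-aspartate shuttle were examined in mouse ovarian follicles. They are 33 genes taken by symbol from the 55157 genes of the table, and 32 of them reached a mean of 1 FPKM (fragments per kilobase, a level corrected for gene length and library size) over the 8 libraries and were tested. Each library was made from follicles of type 7-8, a morphological stage, from ovaries of Kunming mice at postnatal day 21. The melatonin group (n = 4) had been injected with PMSG (pregnant mare serum gonadotropin, which acts on the follicle-stimulating hormone receptor) and melatonin, and the control group (n = 4) with PMSG and normal saline, in both cases 24 h earlier. No group without PMSG entered the comparison, so all values come from gonadotropin-stimulated mice. The labels do not say whether a library came from 1 mouse or from a pool, and p-values therefore measure the spread between these libraries, which may be technical in part. By its title the series is about melatonin, mitochondria and nutrients of the oocyte, and the comparison addressed here is whether transcripts of these enzymes differed with melatonin.

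As background, the TCA cycle oxidizes acetyl groups in the mitochondrial matrix and passes electrons to the respiratory chain, and succinate dehydrogenase is at once a cycle enzyme and complex II of that chain. Pyruvate enters through pyruvate dehydrogenase, which kinases switch off and phosphatases switch on, or through pyruvate carboxylase, which makes oxaloacetate. In ovarian follicles, mammalian oocytes use glucose poorly and depend on pyruvate supplied by the granulosa and cumulus cells around them. The malate-aspartate shuttle moves reducing equivalents from the cytosol into mitochondria through paired cytosolic and mitochondrial malate dehydrogenases and aspartate aminotransferases.

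No gene of the group passed the threshold (adjusted p under 0.05; limma with Benjamini-Hochberg adjustment over 14738 genes), but 29 of the 32 tested had lower mean values with melatonin. The differences were small, with a median of -9.59% and log2 fold changes from -0.35 to 0.18. Over all tested genes 0.0% passed that threshold, and the smallest adjusted p was 0.12 both over all genes and among the 32. At an unadjusted p under 0.05, 16 of the 32 (50%) were lower with melatonin and 1, Pdp1, was higher, against 9.74% and 9.4% of all tested genes. limma-voom on fragments recovered from the FPKM also called 0 of the 32, with 11 lower and 1 higher at that unadjusted p, against 7.45% and 11.9% of all genes in the voom fit. The median log2 fold change of the 32 was -0.137, against -0.01 over all tested genes, and 52.5% of all tested genes had a negative value. All 4 melatonin libraries lay below all 4 control libraries in 8 of the 32 genes (25.0%), against 5.94% of all tested genes. Those were Sdhaf4, Got1, Idh1, Mdh2, Sdhb, Mdh1, Sdhd and Sdha. All 4 lay above in 1 gene, Pdk2, against 5.79%. The 32 genes were more abundant than most, with a median of 21.1 FPKM against 6.96, and in the 8855 genes that averaged 5 FPKM or more the share lower at that unadjusted p was 13.7% and the share without overlap and lower was 8.5%.

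**Figure D1:**
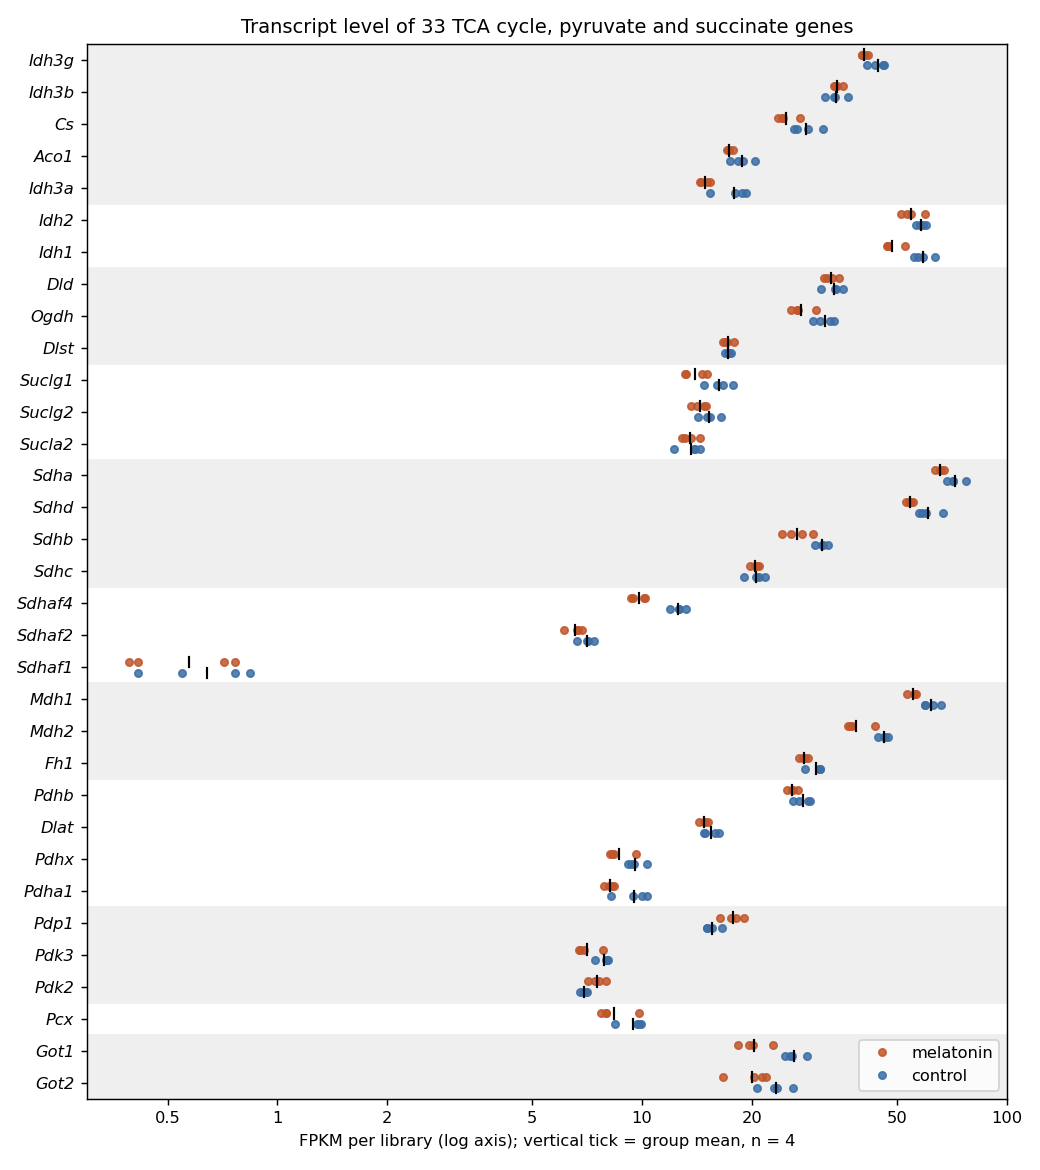
FPKM of each of the 33 genes in every library, arranged by role in shaded bands, on a log axis. Within each gene melatonin libraries are above control libraries, with a tick at each group mean (n = 4). In Sdhaf4, Got1, Idh1, Mdh2, Sdhb, Mdh1, Sdhd and Sdha every melatonin point lies below every control point, and in Pdk2 every melatonin point lies above.

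The summed FPKM of the 33 genes was 787.3, 796.5, 813.5 and 794.7 in melatonin replicates 1 to 4, and 891.3, 879.1, 886.3 and 869.7 in control replicates 1 to 4. The groups did not overlap, and the mean sum was 798 ± 11.1 with melatonin and 882 ± 9.38 in control (SD, n = 4 each), a difference of -9.48%. The sum over all genes was also lower with melatonin, at 278095.7 to 284603.5 FPKM against 287731.2 to 302290.3 FPKM. As a share of that sum, the 33 genes held 0.283%, 0.28%, 0.292% and 0.282% in melatonin libraries and 0.295%, 0.306%, 0.302% and 0.302% in control libraries. The shares kept the groups apart by a narrower margin than the sums did. When every library was scaled to the sum of its FPKM, the median of all tested genes moved to 0.041 and that of the 32 to -0.08, and at an unadjusted p under 0.05 there were 7 of the 32 lower and 2 higher, against 4.46% and 15.0% of all tested genes. Over all genes that is 658 lower and 2213 higher, where the deposited scaling gave 1436 lower and 1385 higher, and 39.6% had negative values. In that scaling 3 of the 32 were lower without overlap, against 2.38% of all tested genes. Quantile normalization left 10 lower at that p and 2 lower without overlap, against 8.01% and 4.71%, and a median of -0.076.

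Other properties of the libraries moved with the groups, and their part in these differences was not tested. The summed FPKM of 8 granulosa cell markers was 6660 to 7390 with melatonin and 7790 to 9480 in control, without overlap, and 7 of the 8 had negative log2 fold changes. Most of that sum was Inha, at 4985 to 5646 FPKM with melatonin and 5883 to 7333 FPKM in control. The sum of 10 oocyte markers was 317 to 410 with melatonin and 332 to 516 in control, overlapping, with all 10 negative. That of 6 theca markers was 621 to 1190 with melatonin and 985 to 1330 in control, also overlapping, with 5 negative. Most of it was Hsd3b1, at 574 to 1138 FPKM with melatonin and 909 to 1264 FPKM in control. Cyp17a1 had 4.1, 3.26, 7.54 and 20.4 FPKM with melatonin and 23.2, 20.4, 15.4 and 20.2 FPKM in control. Cyp11a1 had 7.6, 8.25, 7.44 and 17.5 FPKM with melatonin and 18.1, 13.1, 24.5 and 18.7 FPKM in control. Aldh1a1, the theca marker that was not negative, had 27.6 to 32.4 FPKM with melatonin and 23.5 to 32.8 FPKM in control. Star had 2.5 to 2.64 FPKM with melatonin and 2.48 to 3.85 FPKM in control. Insl3 had 0.346 to 2.91 FPKM with melatonin and 0.728 to 3.61 FPKM in control. Sums of the stroma, endothelium, smooth muscle, leukocyte and erythroid markers overlapped between the groups, none of the marker lists had a gene listed at 0 in all libraries, and 0 markers were called. Negative values were also the rule there among tested markers. They were 5 of 5 for stroma, 3 of 3 for endothelium, 2 of 3 for smooth muscle, 4 of 4 for leukocytes and 3 of 4 for erythroid cells. In such bulk samples fewer cells of a type and less RNA per cell cannot be told apart. Across genes, the Spearman correlation of a library's deviation from the gene mean with GC content was -0.182 to -0.121 with melatonin and -0.0235 to 0.261 in control. Control replicate 3 stood apart on the first principal component, at -29.9 with melatonin libraries at 5.81 to 17.4 and the other control libraries at -11.4 to -0.486. With the GC and exon length trends of every library removed, the median of the 32 was -0.111. Without control replicate 3 it was -0.117.

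Cs, Aco1 and the subunits of Idh3 take the cycle from oxaloacetate and acetyl-CoA to 2-oxoglutarate. Cs, citrate synthase, had 24.2, 24.4, 27.1 and 23.6 FPKM in melatonin libraries, against 28.5, 26.1, 31.3 and 26.6 FPKM in control libraries. Its log2 fold change was -0.17 (95% interval -0.33 to -0.01; adjusted p = 0.235), and the groups overlapped through melatonin replicate 3. Idh3a, the catalytic alpha subunit of the NAD-dependent isocitrate dehydrogenase, had 14.4, 15.1, 15.4 and 14.5 FPKM with melatonin and 18.8, 18.0, 19.3 and 15.4 FPKM in control. Control replicate 4 was level with the highest melatonin library, and the log2 fold change was -0.25 (SE 0.070, adjusted p = 0.148). Idh3g, the gamma subunit and the most abundant of these transcripts, had 40.1, 40.8, 41.7 and 40.1 FPKM with melatonin and 45.9, 43.6, 41.4 and 46.1 FPKM in control. Control replicate 3 lay inside the melatonin range there, and the log2 fold change was -0.12 (adjusted p = 0.23). The beta subunit gene, Idh3b, showed no such offset, with means of 34.3 ± 0.926 FPKM with melatonin and 33.9 ± 2.09 FPKM in control and an interval of -0.10 to 0.14. Aco1, the cytosolic aconitase that doubles as an iron-responsive RNA-binding protein, had means of 17.4 ± 0.254 FPKM with melatonin and 18.7 ± 1.28 FPKM in control (log2 fold change -0.10, adjusted p = 0.33).

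The NADP-dependent isocitrate dehydrogenases make NADPH, Idh1 in the cytosol and peroxisomes and Idh2 in mitochondria. Idh1 (chr1:65158616-65186500, mm10, minus strand) had 47.0, 47.3, 47.2 and 52.5 FPKM in melatonin libraries, and 55.5, 57.2, 63.4 and 59.0 FPKM in control libraries. The groups did not overlap, and the log2 fold change was -0.27 (95% interval -0.40 to -0.14; adjusted p = 0.121). Idh2 had 53.1, 54.5, 59.6 and 51.2 FPKM with melatonin and 58.8, 60.1, 56.2 and 57.9 FPKM in control, with overlap and a log2 fold change of -0.09 (95% interval -0.22 to 0.03). The log2 ratio of Idh2 to Idh1 was higher with melatonin by 0.18, with a two-sided exact permutation p of 0.143 and 0.429 after adjustment over 6 ratios. The groups overlapped in this ratio, and the test neither shows nor excludes an offset between the isoenzymes.

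In the 2-oxoglutarate dehydrogenase complex, 1 of 3 genes, Ogdh, was lower at an unadjusted p under 0.05. Ogdh, the decarboxylase that gives the complex its substrate, had 25.6, 26.6, 30 and 26.8 FPKM with melatonin, against 30.8, 33.6, 32.8 and 29.5 FPKM in control. Melatonin replicate 3 lay above control replicate 4, and the log2 fold change was -0.21 (95% interval -0.35 to -0.07; adjusted p = 0.154). Dld, the dihydrolipoamide dehydrogenase that this complex shares with pyruvate dehydrogenase, had 34.6, 32.1, 33.2 and 31.6 FPKM with melatonin and 35.6, 34.0, 33.8 and 31.0 FPKM in control, and its interval was -0.15 to 0.09. Dlst, the succinyltransferase core, had means of 17.1 ± 0.536 FPKM with melatonin and 17.2 ± 0.271 FPKM in control, with an interval of -0.10 to 0.08. Whether Ogdh differed from its partners in response was not tested.

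Succinyl-CoA ligase makes succinate and a nucleoside triphosphate. Suclg1, the alpha subunit common to both forms of the enzyme, had 14.6, 15.1, 13.1 and 13.2 FPKM with melatonin and 17.7, 16, 14.8 and 16.7 FPKM in control. Only control replicate 3 reached into the melatonin range, and the log2 fold change was -0.21 (SE 0.070, adjusted p = 0.18). The beta subunits that set the nucleotide, Suclg2 for GTP and Sucla2 for ATP, had log2 fold changes of -0.08 and -0.01. The log2 ratio of Sucla2 to Suclg2 differed by 0.07, with an exact permutation p of 0.4 (two-sided; 0.457 adjusted over 6 ratios).

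Of the subunit genes of succinate dehydrogenase, 3 of 4 lay entirely below control with melatonin, where 5.94% of all tested genes did. Sdha, the flavoprotein that oxidizes succinate and the most abundant of the 33 transcripts by mean FPKM, had 65.9, 67.2, 65.4 and 63.5 FPKM with melatonin and 71.4, 77.1, 68.6 and 71.3 FPKM in control. Sdhb, the iron-sulfur subunit, had 24.2, 27.4, 29.4 and 25.6 FPKM with melatonin and 31.3, 29.8, 32.4 and 31.2 FPKM in control. Sdhd, a membrane anchor, had 53.0, 55.3, 54.0 and 54.6 FPKM with melatonin and 58.4, 57.6, 66.8 and 60.2 FPKM in control. Their log2 fold changes were -0.14 for Sdha, -0.22 for Sdhb and -0.16 for Sdhd, with adjusted p of 0.191, 0.148 and 0.184. With quantile normalization they were smaller, at -0.04 for Sdha, -0.175 for Sdhb and -0.079 for Sdhd. The gap was narrow in Sdhb, where the highest melatonin library was at 29.4 FPKM and the lowest control library at 29.8 FPKM. Sdhc, the other membrane anchor, had 20.9, 20.4, 20.7 and 19.8 FPKM with melatonin and 21.7, 19.0, 20.9 and 20.5 FPKM in control, with an interval of -0.12 to 0.11.

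The assembly factors insert cofactors into succinate dehydrogenase or chaperone its subunits before they join. Sdhaf4, which binds the flavinated Sdha subunit, had the smallest p of the 32 genes. It had 10.1, 9.46, 10.2 and 9.35 FPKM in melatonin libraries, against 12.6, 12.6, 11.9 and 13.2 FPKM in control libraries. All melatonin values lay below all control values, and the means were 9.78 ± 0.438 FPKM and 12.6 ± 0.554 FPKM (SD, n = 4 each), a difference of -22.3% (log2 fold change -0.33, SE 0.051, adjusted p = 0.12). At least 166 fragments per library lay behind these values. The gene is at chr1:23995939-24005656 on the minus strand (mm10), and 111 bases of its exons (12.7%) are shared with the unclassified opposite-strand transcript Gm26524, which averaged 0.134 FPKM. The library kit named in the labels does not mark strand by itself, and reads from the shared bases cannot be told apart. Sdhaf2, which adds the flavin to Sdha, had means of 6.56 ± 0.321 FPKM with melatonin and 7.05 ± 0.303 FPKM in control (adjusted p = 0.388). Sdhaf1, which helps to mature the iron-sulfur subunit, was under the filter and not tested, with 0.391, 0.765, 0.714 and 0.415 FPKM with melatonin and 0.843, 0.414, 0.547 and 0.766 FPKM in control, from 18 to 42 fragments per library. Of the Sdhaf1 exon bases, 1733 (69.6%) are shared with the opposite-strand gene E130208F15Rik, which was at 0.0 FPKM. What part this overlap has in the low Sdhaf1 values was not tested.

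Fumarase and the mitochondrial malate dehydrogenase close the cycle, and Mdh1 is the cytosolic form that serves the shuttle. All 3 genes were lower at an unadjusted p under 0.05, as were 9.74% of all tested genes. Fh1, fumarate hydratase, had 28.0, 28.5, 27.0 and 27.6 FPKM with melatonin and 30.5, 30.7, 30.7 and 28.0 FPKM in control, where replicate 4 lay apart from the other control libraries and inside the melatonin range (log2 fold change -0.11, adjusted p = 0.25). Mdh2, the mitochondrial malate dehydrogenase (chr5:135778480-135790398, plus strand, mm10), had 37.1, 36.6, 43.5 and 37.6 FPKM with melatonin and 47.1, 44.3, 46.4 and 46.1 FPKM in control. Mdh1, its cytosolic counterpart, had 56.1, 53.2, 55.7 and 56.2 FPKM with melatonin and 66.1, 62.7, 59.7 and 59.5 FPKM in control. Neither overlapped between groups, with log2 fold changes of -0.25 (95% interval -0.38 to -0.11; adjusted p = 0.138) for Mdh2 and -0.16 (95% interval -0.27 to -0.05; adjusted p = 0.156) for Mdh1. The log2 ratio of Mdh2 to Mdh1 differed by -0.08 between groups (two-sided exact permutation p = 0.229, adjusted p = 0.457).

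The aminotransferases that complete the malate-aspartate shuttle interconvert aspartate and oxaloacetate. Got1, the cytosolic form (chr19:43499752-43524605, minus strand, mm10), had 18.3, 20.2, 19.7 and 22.8 FPKM with melatonin, against 25.8, 25.4, 28.3 and 24.6 FPKM in control. Every melatonin library was below every control library, and the means of 20.3 ± 1.92 FPKM and 26.0 ± 1.61 FPKM (SD, n = 4 each) differed by -22.2%, with a log2 fold change of -0.35 (95% interval -0.52 to -0.18; adjusted p = 0.121), the lowest of the 32. Got2, the mitochondrial form, had 21.8, 21.3, 16.7 and 20.3 FPKM with melatonin and 23.0, 23.5, 20.6 and 25.9 FPKM in control. Control replicate 3 lay inside the melatonin range of Got2, and the log2 fold change was -0.21 (95% interval -0.43 to 0.01; adjusted p = 0.278). Their ratio did not separate the groups, with a difference of 0.14 for Got2 over Got1 on the log2 scale and an exact permutation p of 0.457, both before and after adjustment (two-sided).

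**Figure D2:**
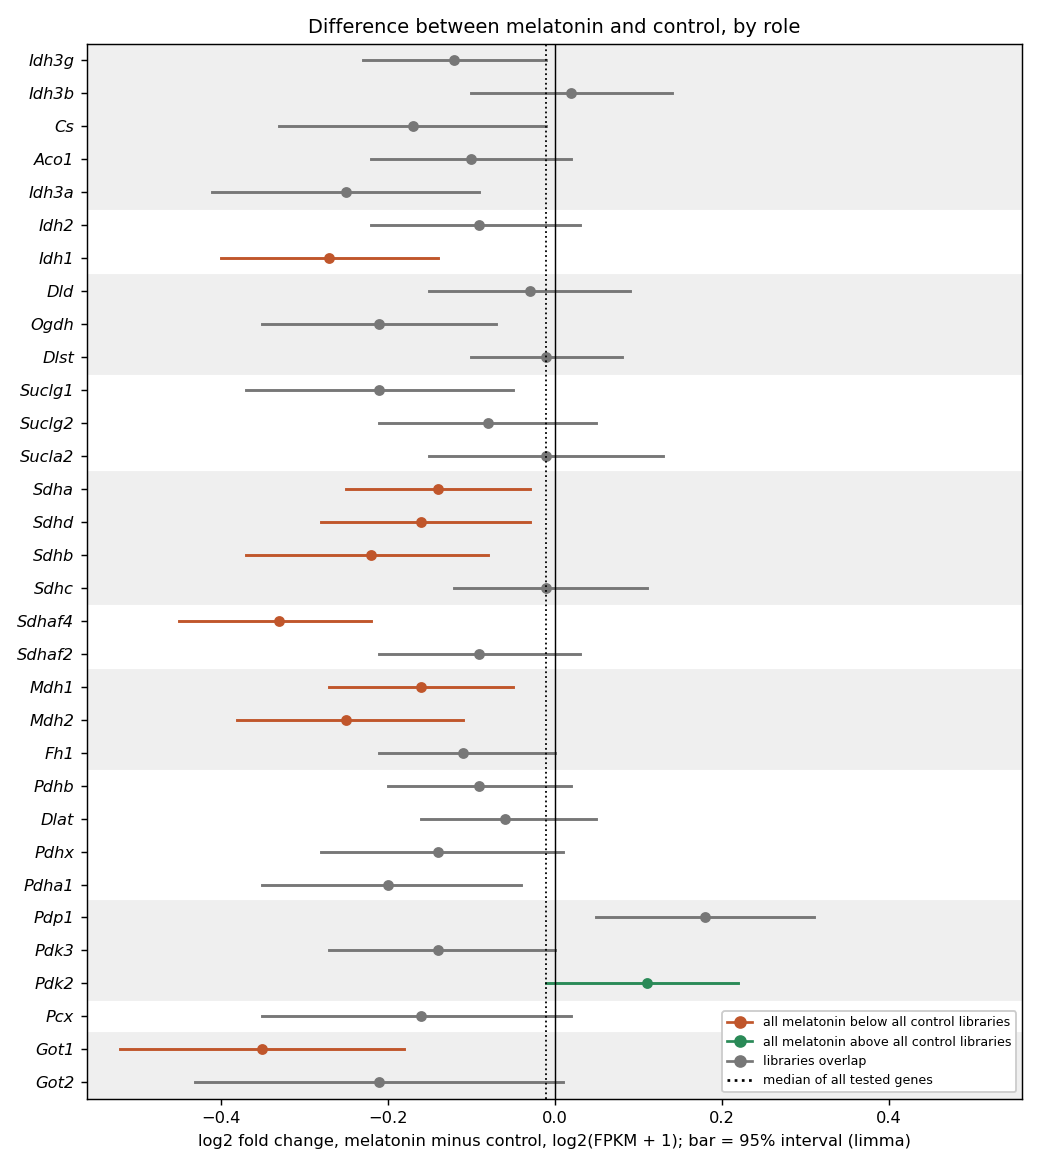
log2 fold change of each of the 32 tested genes, melatonin minus control on log2(FPKM + 1), with limma's 95% interval, grouped by role in shaded bands. Points run from -0.35 (Got1) to 0.18 (Pdp1), and 29 lie left of 0. The dotted line is the median of all tested genes, -0.01.

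The pyruvate dehydrogenase complex turns pyruvate into acetyl-CoA. Pdha1, the alpha subunit of its decarboxylase and the one that the kinases phosphorylate, had 7.86, 8.35, 8.13 and 8.28 FPKM with melatonin and 10.3, 9.47, 8.23 and 10 FPKM in control. Control replicate 3 lay inside the melatonin range, and the log2 fold change was -0.20 (95% interval -0.35 to -0.04; adjusted p = 0.192). In Pdha1, 603 exon bases (16.1%) are shared with the opposite-strand gene Map3k15, which averaged 0.781 FPKM. Pdhb, the beta subunit of the decarboxylase, had 25.7, 24.9, 26.8 and 25.9 FPKM with melatonin and 28.5, 26.0, 28.8 and 26.9 FPKM in control (log2 fold change -0.09, adjusted p = 0.348). Dlat, the acetyltransferase core, and Pdhx, which tethers Dld to that core, had log2 fold changes of -0.06 and -0.14 (adjusted p = 0.516 and 0.283). All 4 genes of the complex were negative, and in each the groups overlapped.

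Of the regulators of pyruvate dehydrogenase, 2 of 3 had positive values, as did 1 of the other 29 tested genes, Idh3b, in the deposited scaling. Pdp1, a phosphatase that reactivates the complex, had 16.4, 18.1, 17.5 and 19.0 FPKM with melatonin and 15.5, 15.1, 16.6 and 15.1 FPKM in control. Control replicate 3 exceeded melatonin replicate 1, and the log2 fold change was 0.18 (95% interval 0.05 to 0.31; adjusted p = 0.17), or 0.09 with the GC and length trends removed, where its unadjusted p was no longer under 0.05 in limma. Pdk2, a kinase that inactivates the complex, had 7.62, 7.98, 7.43 and 7.10 FPKM with melatonin and 6.74, 7.05, 6.87 and 7.03 FPKM in control, apart by a narrow gap between 7.10 and 7.05 FPKM (log2 fold change 0.11, 95% interval -0.01 to 0.22; adjusted p = 0.288), and its log2 fold change was 0.18 with those trends removed (adjusted p = 0.185). Pdk3, another kinase of the complex, had 6.72, 7.80, 6.76 and 6.95 FPKM with melatonin and 8.06, 8.03, 7.96 and 7.41 FPKM in control, with melatonin replicate 2 inside the control range (log2 fold change -0.14, adjusted p = 0.249).

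The kinases thus had fold changes of opposite sign, and their ratio kept the groups apart. The log2 ratio of Pdk3 to Pdk2 was -0.16, -0.03, -0.12 and -0.03 in melatonin libraries, and 0.23, 0.17, 0.19 and 0.07 in control libraries. The difference was -0.24, with a two-sided exact permutation p of 0.0286, the smallest that 4 libraries against 4 allow, and an adjusted p of 0.171 over the 6 ratios examined. With the p at its floor, a single ratio among 6 cannot reach a lower adjusted p. The ratio therefore did not pass after adjustment, and could not have passed alone. The ratio of Pdp1 to Pdk2 differed by 0.07 on the log2 scale (exact permutation p = 0.4, two-sided; adjusted p = 0.457), and by -0.09 with the GC and length trends removed.

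**Figure D3:**
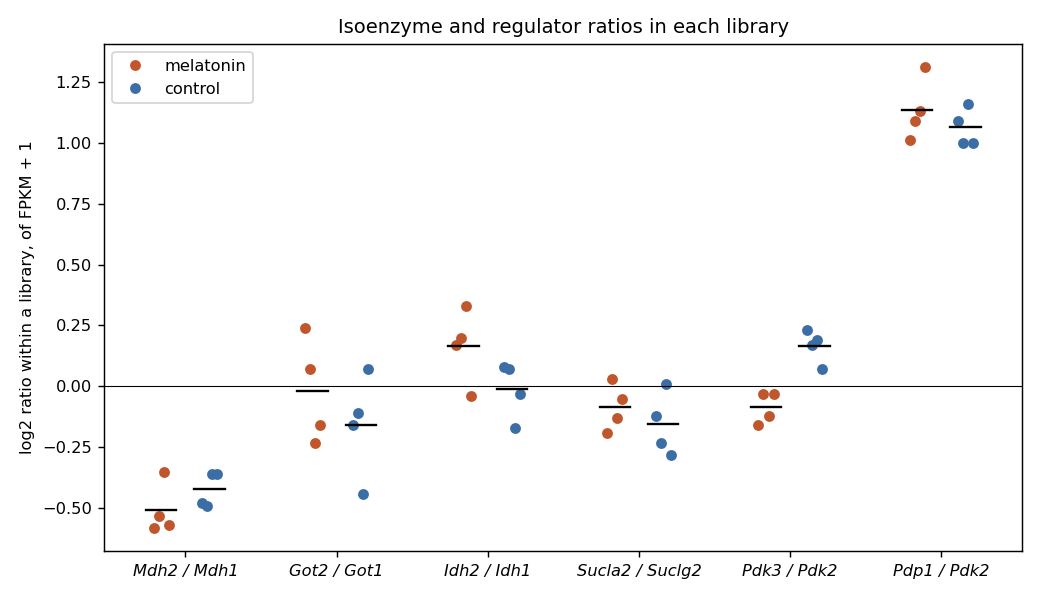
Log2 ratios of 6 pairs of isoenzymes, subunits or regulators in every library, melatonin left of control, with a bar at each group mean. The groups are apart in the ratio of Pdk3 to Pdk2, at -0.16 to -0.03 with melatonin and 0.07 to 0.23 in control, and overlap in the other 5.

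Pcx, pyruvate carboxylase, had 7.97, 7.98, 7.73 and 9.78 FPKM with melatonin, against 8.43, 9.71, 9.81 and 9.92 FPKM in control. Melatonin replicate 4 was at the level of the upper control libraries and control replicate 1 near the lower melatonin ones, and the log2 fold change was -0.16 (95% interval -0.35 to 0.02; adjusted p = 0.318).

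**Figure D4:**
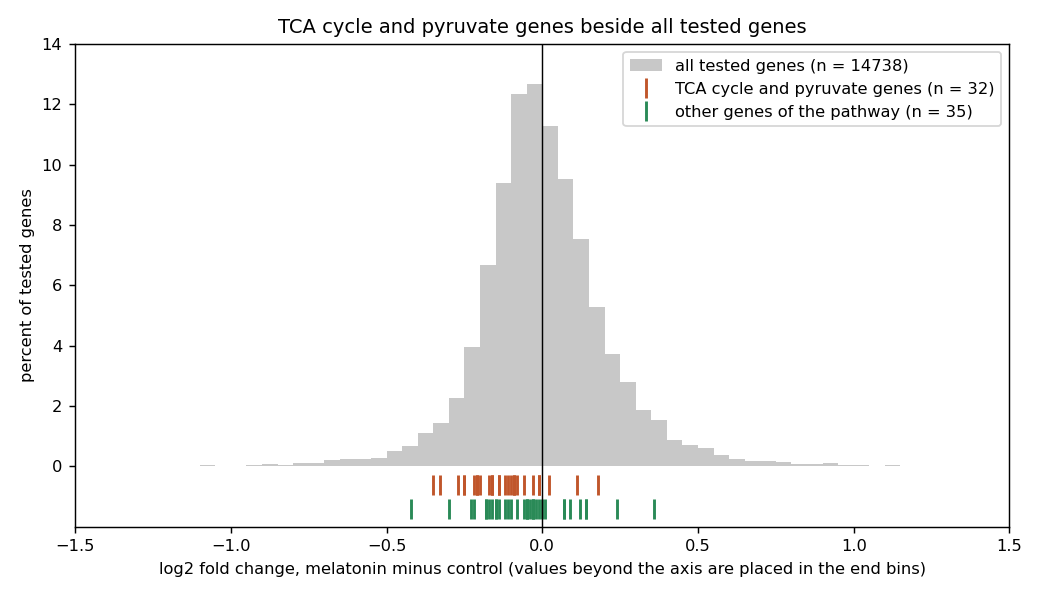
Histogram of log2 fold changes, melatonin minus control, of all 14738 tested genes in percent, with a tick for each of the 32 tested genes and, below, for each of 35 other genes of the pathway. The 32 lie mostly to the left, with 20 of them at or below -0.1, where 27.4% of all tested genes lie.

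Upstream DNA is shown for Got1 and Sdhaf4, which had the lowest fold changes of the 32. For Sdhd, a stretch after its start site that holds a motif match is shown. RefSeq promoter windows (GRCm38.p6; 250 bases before to 50 after a start site) were at hand for 30 of the 33 genes, not including Sdhc, Pdp1 and Idh3a. The letters AAGGTCA, the core of the element of estrogen-related receptors, which are known regulators of mitochondrial genes, were found on either strand in windows of 3 of the 30 genes (10%), Got1, Ogdh and Sdhd, against 1454 of 27025 genes with a window (5.38%). The palindromic site of nuclear respiratory factor was in 0 of the 30, against 1.07% of all. The 250 bases upstream of Got1 (chr19:43524606-43524855, minus strand) and of Sdhaf4 (chr1:24005641-24005890, minus strand), and 25 bases around the match in Sdhd (chr9:50603800-50603824, minus strand), read as follows 5′ to 3′, with the match in capitals.
Got1: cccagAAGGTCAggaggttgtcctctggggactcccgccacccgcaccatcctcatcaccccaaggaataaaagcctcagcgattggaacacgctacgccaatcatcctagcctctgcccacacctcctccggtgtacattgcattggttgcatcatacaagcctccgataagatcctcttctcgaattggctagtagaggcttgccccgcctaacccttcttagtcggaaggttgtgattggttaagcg
Sdhaf4: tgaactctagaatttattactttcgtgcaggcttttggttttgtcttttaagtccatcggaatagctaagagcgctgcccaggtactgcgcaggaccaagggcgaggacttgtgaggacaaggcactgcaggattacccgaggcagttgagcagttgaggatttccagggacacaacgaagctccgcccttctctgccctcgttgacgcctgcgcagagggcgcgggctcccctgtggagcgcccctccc
Sdhd: gggttgtagagTGACCTTgagccct
The match in Got1 begins at position -245 from the start site, and that in Sdhd, on the other strand, at position 37. The match in Ogdh, also on the other strand, begins at position -5, nearer its start site, and its sequence is not shown. The Sdhaf4 window held neither string. It had 14 CpG in 250 bases and a GC content of 56.8%, and that of Got1 11 CpG and 54.4%. A match describes letters in a window and is no evidence of binding.

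Other genes of pyruvate, lactate, malate, glutamate and lipoate metabolism were listed for comparison, 37 in all with 35 tested. None was called by limma, 25 had negative and 10 positive log2 fold changes, and the median was -0.046. At an unadjusted p under 0.05, 9 of the 35 were lower and 2 higher with melatonin, against 9.74% and 9.4% of all tested genes. The groups did not overlap in 3, all lower (8.57%), near the 5.94% of all tested genes. Among the lower, Ldha, the lactate dehydrogenase subunit that favours lactate formation, had 85.7, 90.0, 105 and 82.4 FPKM with melatonin and 119, 120, 145 and 103 FPKM in control (log2 fold change -0.42, SE 0.111, adjusted p = 0.146). Me1, the cytosolic malic enzyme that makes pyruvate and NADPH from malate, had 20.8, 25.9, 24.2 and 21.7 FPKM with melatonin and 27.1, 27.6, 32.2 and 28.0 FPKM in control, without overlap (log2 fold change -0.30, adjusted p = 0.147). Lipt2, which starts the attachment of lipoate to the dehydrogenase complexes, had 10.6, 10.8, 10.7 and 10 FPKM with melatonin and 13.0, 13.1, 12.0 and 11.7 FPKM in control, also without overlap (log2 fold change -0.22, adjusted p = 0.132). In Ldha melatonin replicate 3 exceeded control replicate 4.

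On the higher side, Pdk1, a further pyruvate dehydrogenase kinase, had 7.40, 6.26, 5.90 and 7.76 FPKM with melatonin and 5.80, 6.23, 4.94 and 5.47 FPKM in control (log2 fold change 0.24, adjusted p = 0.231). D2hgdh, which oxidizes D-2-hydroxyglutarate to 2-oxoglutarate, had a log2 fold change of 0.14 (adjusted p = 0.374). The named genes are among those of smallest unadjusted p in their direction.

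Over the libraries, the median deviation of the 32 genes from their own means, on log2(FPKM + 1), was -0.07, -0.06, -0.016 and -0.069 in melatonin replicates 1 to 4, and 0.088, 0.076, 0.062 and 0.026 in control replicates 1 to 4. Melatonin replicate 3 was thus nearest to control, with 15 of the 32 genes below the lowest control library, against 20 to 22 in the other melatonin libraries. Leaving that library out raised the number of genes without overlap to 17, of which 16 were lower, against 10.2% of all tested genes lower without overlap in the same libraries. Leaving out control replicate 3 raised it to 15, of which 13 were lower, against 7.62%. With 1 library fewer, more genes separate by construction. Across the settings with 32 genes tested, 25 to 29 had negative values, and with no filter 30 of 33 did. No setting called any of the 32, and the smallest adjusted p over all of them was 0.0866.

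**Figure D5:**
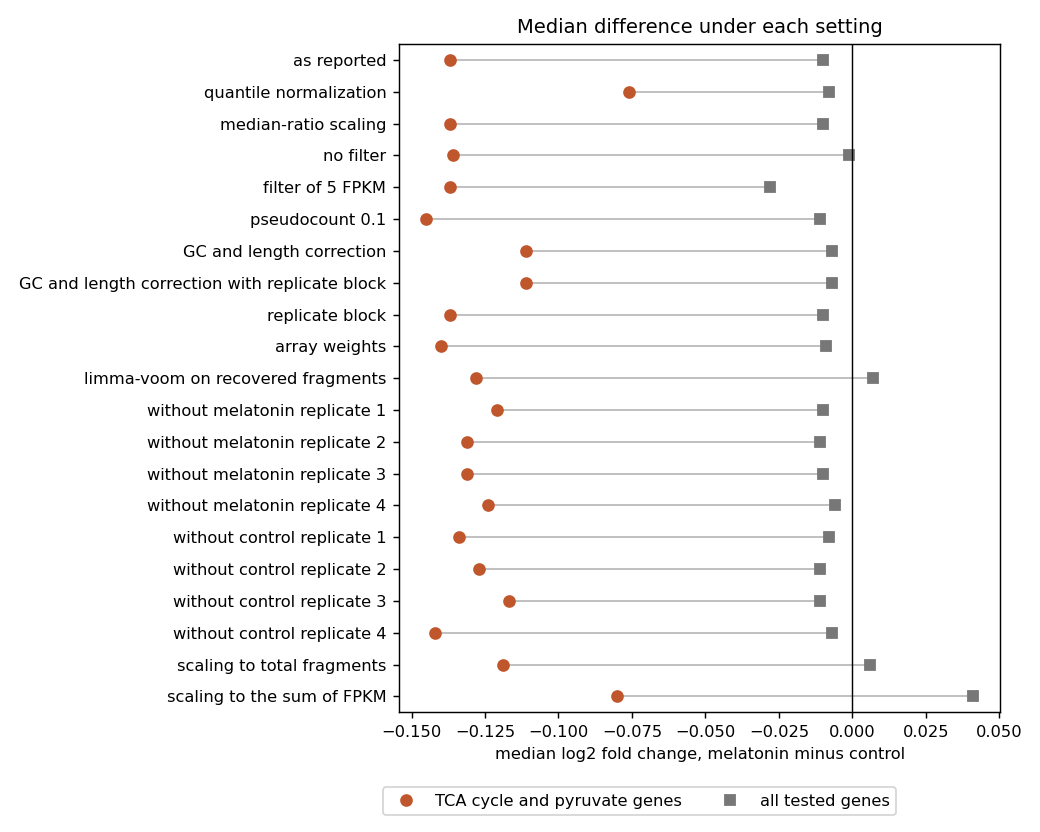
Median log2 fold change of the 32 genes (33 with no filter) and of all tested genes under each setting of the fit, melatonin minus control. The median of the group lay between -0.145 and -0.076, below that of all tested genes in every setting shown.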

How the data were processed

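Messenger RNA of follicles was measured in 8 libraries, 4 with melatonin and 4 control, grouped by title. Per the submitters' processing notes, the build was mm10 and the aligner HISAT2 2.0.5. Not given in the sources used here are the counting tool, annotation and strand setting. Per the file headers, the authors deposited FPKM for each gene. With GENCODE M21 exon lengths, 98.8% of low values (up to 30 fragments) were whole fragments within 0.05. The recovered totals were 18187685 to 23245463 fragments in melatonin and 17303792 to 21911696 in control libraries. At these depths 1 fragment on 1 kb is 0.0423 to 0.0573 FPKM, which limits Sdhaf1. The divisors implied by the deposited FPKM matched median-ratio size factors within 0.0146 percent, so the values compare with the typical gene and not with total RNA.

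FPKM are not counts, so limma 3.58.1 (R 4.3.3; eBayes, trend) was applied to log2(FPKM + 1) of the 14738 genes that averaged 1 FPKM or more, with group as the single term and Benjamini-Hochberg adjustment over all of them. Fold changes on this scale understate those of low genes. Ratios of 6 pairs were tested by two-sided exact permutation over 70 assignments. The limma fit across genes was run on simulated data with known changes. Values in every library are given for genes with an unadjusted p under 0.05 and the most abundant gene of each role. They are also given, chosen after their values were seen, for Sdhc, Pdk2, Got2, Sdhaf1 and the theca markers Cyp17a1 and Cyp11a1. Of the other pathway genes, the 3 of smallest unadjusted p per direction are named, except 1 that is not reported here. The genes and lists were chosen with earlier results of these data known. Alternatives were quantile and median-ratio scaling, filters of 0 and 5 FPKM, a pseudocount of 0.1 (also 0 for ratios), removal of GC and length trends (splines with 5 degrees of freedom), array weights, limma-voom, the replicate number as a block and leaving out each library. Scaling to total fragments and to the sum of FPKM was added after seeing the data. Python 3.11.15, numpy 2.4.6, pandas 2.3.3, scipy 1.17.1 and matplotlib 3.10.9 were used.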

Additional observations from a re-analysis of the deposited data

Results flagged for a closer look

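In 9 of 90 groups of 4 libraries, 1 library lay far from the other 3, by Dixon's criterion at 95%, and chance alone gives about 1 in 20 such groups. Of the melatonin libraries, replicate 4 was high in Idh1 (52.5 FPKM, the others 47.0 to 47.3) and in Pcx (9.78 FPKM, the others 7.73 to 7.98). Melatonin replicate 3 was high in Mdh2 (43.5 FPKM, the others 36.6 to 37.6) and in Pdhx (9.63 FPKM, the others 8.16 to 8.39), and melatonin replicate 2 was low in Mdh1 (53.2 FPKM, the others 55.7 to 56.2). Of the control libraries, replicate 4 was low in Fh1 (28.0 FPKM, the others 30.5 to 30.7) and in Pdk3 (7.41 FPKM, the others 7.96 to 8.06). Control replicate 1 was low in Pcx (8.43 FPKM, the others 9.71 to 9.92), and control replicate 3 was high in Me1 (32.2 FPKM, the others 27.1 to 28.0). The causes were not tested.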

How the results depend on the processing

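In the 20 alternatives, 8 of them leaving out a library, limma called 0 of the 32 genes and 0 of the listed neighbours. Median-ratio scaling, counted among them, could hardly differ from the main fit, because the deposited values already carried such a scaling. Of all genes, 1 was called with no filter, 1 with GC and length correction plus the replicate block, and 0 to 1 with a library left out (1 without control replicate 1). Quantile normalization gave 10 genes lower at an unadjusted p under 0.05, 3 without overlap and a median log2 fold change of -0.076. Scaling to the sum of FPKM gave 7, 5 and -0.08. Leaving out a library gave 10 to 17 genes without overlap, 12 to 16 lower at that p and medians of -0.142 to -0.117. In the 20 alternatives 27 genes kept their sign and 5 near 0 did not. Sdhc was at 0.032 with quantile normalization, 0.035 with GC and length correction with or without the block, 0.01 with array weights, 0.012 with limma-voom, 0.013 with scaling to total fragments, 0.052 with scaling to the sum of FPKM and -0.039 to 0.021 with a library left out (0.01, 0.021 and 0.004 without melatonin replicate 4, control replicate 1 and control replicate 3). Dlst was at 0.02 with quantile normalization, 0.009 with limma-voom and with total fragments, 0.048 with the sum of FPKM and -0.029 to 0.002 with a library left out (0.002 without melatonin replicate 2). Dld was at 0.03 with quantile normalization and 0.028 with the sum of FPKM. Sucla2 was at 0.006 with limma-voom, 0.005 with total fragments, 0.044 with the sum of FPKM and -0.059 to 0.012 with a library left out, above 0 (from 0.001) without melatonin replicates 1 (0.007) or 4 or control replicates 1 or 3. Idh3b was at -0.014 to 0.055 with a library left out, below 0 without melatonin replicate 4 (-0.002) or control replicate 3. Of the ratios, that of Pdp1 to Pdk2 was at -0.09 on the log2 scale with GC and length correction. The cause of these shifts was not tested.

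Whether the replicate numbers of the labels pair the libraries cannot be decided from these values. Same-numbered libraries had correlations of 0.000742, -0.103, 0.151 and 0.0382 in their deviations from the group means. For melatonin replicates 3 and 4, the control library of highest correlation was the same-numbered one. With the number as a replicate block, 0 genes were called, 15 of the 32 were lower at an unadjusted p under 0.05 and the median stayed at -0.137. The exact test of a ratio within 4 pairs cannot go below p = 0.125. With a library left out, the difference in the ratio of Pdk3 to Pdk2 was -0.28 to -0.22, with adjusted p of 0.0857 to 0.343.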
